A study of Mus musculus with 4 samples.

Results

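The Toll-like receptor genes Tlr1 to Tlr9 and Myd88, which encodes the adaptor that most of these receptors share, were examined in myeloid-derived suppressor cells (MDSCs) after knockdown or exogenous expression of a long noncoding RNA. The members were the probe sets that the platform annotation assigns to only 1 gene symbol, that of one of these 10 genes. This rule found 16 of the 45101 probe sets of the array, and the array's singly annotated probe sets cover 18194 genes. Tlr4 had 4 probe sets, Tlr7 had 3, Tlr3 had 2, and each of the other genes had 1.

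Toll-like receptors sense microbial molecules. TLR1, TLR2 and TLR6 work at the cell surface as pairs that bind bacterial lipoproteins, TLR4 binds lipopolysaccharide together with MD-2 and CD14, and TLR5 binds flagellin. TLR3, TLR7, TLR8 and TLR9 sit in endosomes and sense nucleic acids. All of these receptors except TLR3, which uses TRIF, signal through MyD88 to IRAK kinases, TRAF6 and NF-kB, and in myeloid cells this induces cytokines, chemokines and cyclooxygenase 2.

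Cells from fresh bone marrow of C57BL/6 mice received a lentivirus and were grown for 4 days with GM-CSF and IL-6, and total RNA of the whole culture was hybridised to Affymetrix mouse arrays. The 4 groups were kdLNC (shRNA lentivirus against the RNA, which the labels call lncMDSC and the paper lnc-C/EBPβ), kdNC (control shRNA lentivirus, against luciferase per the methods), oeLNC (lentivirus that carries the RNA) and oeNC (control lentivirus for overexpression). Each group was 1 array of 1 culture, so the differences below come with neither a p-value nor an error between replicates. In such whole cultures, fewer cells of a type and less RNA per cell cannot be told apart. No probe set for the targeted RNA was analysed here, so the knockdown and the overexpression are taken from the labels.

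The median of the probe sets on an array was 4.17 to 4.24 in log2 intensity. The log2 ratio of the 3' to the 5' control probe set of beta-actin was 1.96 on kdLNC, 1.61 on kdNC, 1.97 on oeLNC and 1.96 on oeNC, and that of Gapdh was 0.69 on kdLNC, 0.51 on kdNC, 0.65 on oeLNC and 0.53 on oeNC. All 10 measured neutrophil markers lay above the array median on all 4 arrays, as did 6 of 7 measured markers of monocytes and macrophages. Values below are deposited intensities on a linear scale, and differences are on the log2 scale. They are set beside the SD of the difference between the control arrays (oeNC minus kdNC) over the 500 probe sets nearest in level, a spread in which the vector, the culture and the array are mixed and which stands for no replicates. Levels of different probe sets are not compared with each other.

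Of the 16 probe sets, 12 lay above the array median on all 4 arrays. The dimmest probe set of Tlr4, the dimmer one of Tlr3 and that of Tlr8 lay below it on all 4, and that of Tlr9 lay above it on oeLNC and oeNC only. A gene was counted when its brightest probe set lay above the array median on at least 1 array of a pair, with a fold threshold of 1.5. In kdLNC against kdNC, 8 of the 10 genes passed this filter (not Tlr8 and Tlr9), and 1 of them was at least 1.5-fold higher (Tlr1) and 1 at least 1.5-fold lower (Tlr3). Among all 11505 genes tested in that pair, 2.36% were higher and 1.96% lower by as much. In oeLNC against oeNC, 9 of the 10 genes passed (not Tlr8) and none differed by 1.5-fold in either direction, where 3.93% of 11869 genes were higher and 5.38% lower.

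**Figure D1:**
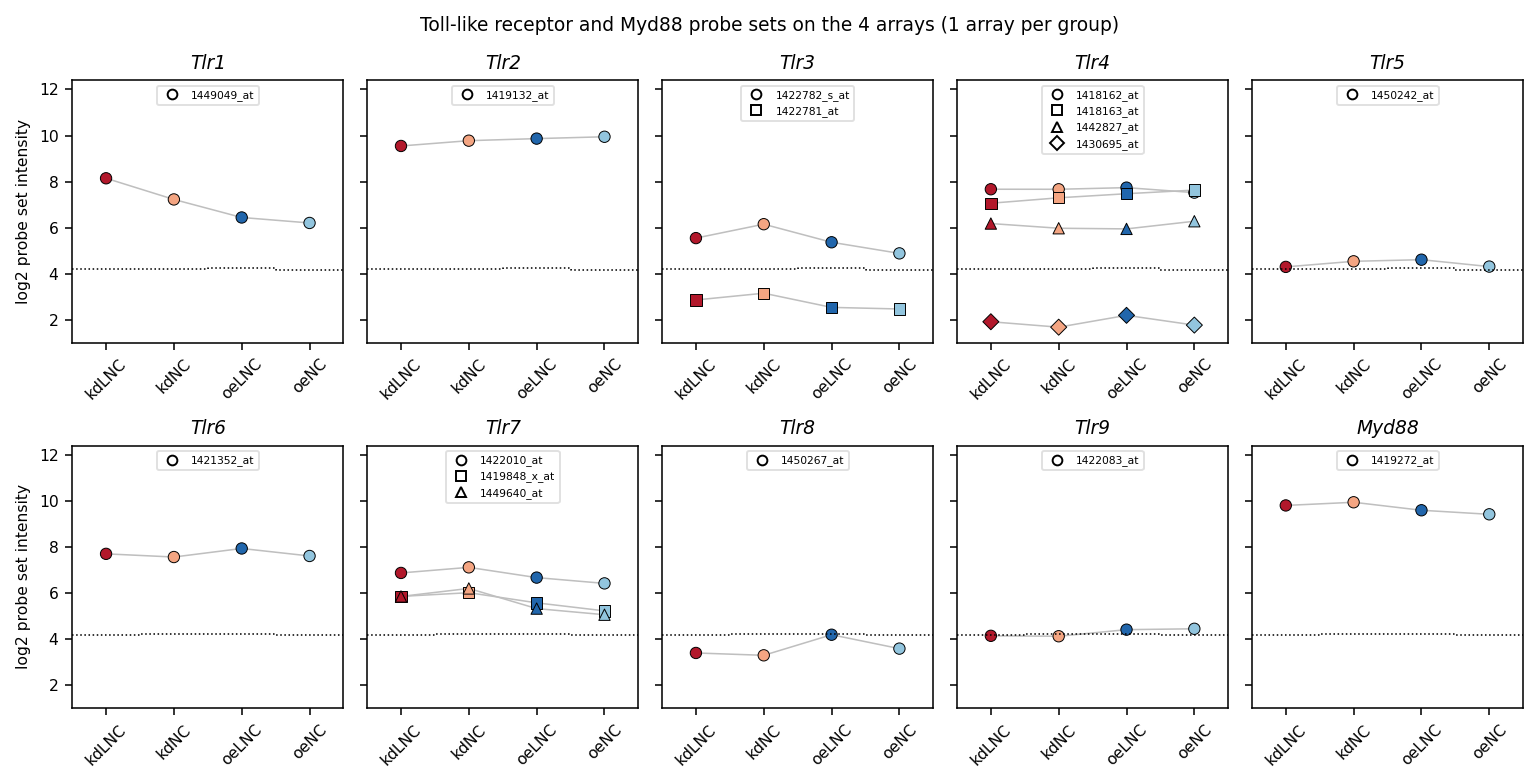
Log2 intensity (vertical axis) of each probe set of the 10 genes on the arrays of kdLNC, kdNC, oeLNC and oeNC, 1 array each, with a marker shape for each probe set and the array median as a dotted line. Tlr1 is highest on kdLNC (282.7 in linear intensity) and lowest on oeNC (73.7), and the probe set of Tlr8 and the dimmest of Tlr3 and of Tlr4 lie below the dotted line.

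Tlr1, the partner of TLR2 for triacylated lipoproteins, had the largest difference of the members in the knockdown pair. The intensity of its probe set 1449049_at was 283 in kdLNC, 149.6 in kdNC, 86.9 in oeLNC and 73.7 in oeNC. It was thus highest in kdLNC, and both arrays of the knockdown pair lay above both arrays of the overexpression pair. Tlr1 was 1.89-fold higher in kdLNC than in kdNC, a log2 difference of 0.92 where the SD of the control difference was 0.58. In oeLNC against oeNC its difference was 0.24, inside that SD. The controls differed by more than either pair, at -1.02 for oeNC minus kdNC, so that against the mean of both control arrays Tlr1 stood at 1.43 in kdLNC and at -0.27 in oeLNC. Ordered by level, kdLNC and kdNC, and kdNC and oeLNC, were farther apart than the SD (0.92 and 0.78), and oeLNC and oeNC were not.

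Tlr6, which also pairs with TLR2 and binds diacylated lipoproteins, is the next gene to Tlr1 on chromosome 5 with 0 genes between them. Its probe set 1421352_at had intensities of 208 in kdLNC, 189 in kdNC, 245 in oeLNC and 195 in oeNC. These lay close together, with differences of 0.14 in the knockdown pair, 0.33 in the overexpression pair and 0.046 between the controls, against an SD of 0.63. The promoters of both neighbours are shown because Tlr1 lay past the SD in the knockdown pair and Tlr6 did not, a difference between the genes that was not tested. Each sequence runs 5′ to 3′ from 250 bases before to 50 bases after a start site in RefSeq (GRCm38.p6) on the strand of the gene, and both genes have 2 such entries on the minus strand. Capitals mark matches, on either strand, to the motifs of PU.1 (GAGGAA), C/EBP factors (TTNNGNAA), AP-1 (TGANTCA), interferon response elements (2 GAAA blocks with 2 bases between) or NF-kB (by name).
Tlr1, chr5:64933509-64933808: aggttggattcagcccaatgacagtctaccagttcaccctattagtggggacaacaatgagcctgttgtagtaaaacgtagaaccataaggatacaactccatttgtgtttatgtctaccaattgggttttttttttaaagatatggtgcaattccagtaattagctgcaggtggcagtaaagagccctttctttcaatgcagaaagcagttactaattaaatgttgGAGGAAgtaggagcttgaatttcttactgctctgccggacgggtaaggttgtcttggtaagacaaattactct
Tlr1, chr5:64932650-64932949: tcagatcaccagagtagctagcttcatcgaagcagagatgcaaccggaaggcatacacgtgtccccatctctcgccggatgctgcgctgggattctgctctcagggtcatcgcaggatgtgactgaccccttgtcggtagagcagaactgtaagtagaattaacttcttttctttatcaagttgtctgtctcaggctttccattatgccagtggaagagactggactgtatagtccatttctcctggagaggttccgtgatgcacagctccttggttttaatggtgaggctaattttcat
Tlr6, chr5:64959999-64960298: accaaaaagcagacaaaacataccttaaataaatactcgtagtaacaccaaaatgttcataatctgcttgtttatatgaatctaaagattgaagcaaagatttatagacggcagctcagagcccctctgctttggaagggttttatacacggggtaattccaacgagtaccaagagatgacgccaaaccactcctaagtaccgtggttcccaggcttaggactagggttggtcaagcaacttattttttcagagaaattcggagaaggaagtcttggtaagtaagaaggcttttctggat
Tlr6, chr5:64959117-64959416: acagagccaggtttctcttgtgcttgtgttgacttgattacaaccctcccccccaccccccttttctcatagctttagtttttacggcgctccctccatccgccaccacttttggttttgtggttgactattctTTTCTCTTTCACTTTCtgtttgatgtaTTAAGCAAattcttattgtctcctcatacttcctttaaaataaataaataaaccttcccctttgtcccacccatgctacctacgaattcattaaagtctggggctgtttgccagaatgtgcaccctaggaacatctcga

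The Tlr1 entry printed first held 1 PU.1 match, a motif found in 28.3% of all 32851 promoter entries, and the Tlr1 entry after it held no match. The Tlr6 entry printed last held 2 overlapping matches to the interferon response element, which 3.44% of entries hold, and 1 C/EBP match, which 40.7% hold. Such matches describe the letters and show no binding.

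Tlr2, the shared partner of TLR1 and TLR6, differed little between arrays. The intensity of 1419132_at was 748 in kdLNC, 877 in kdNC, 933 in oeLNC and 987 in oeNC. The overexpression pair lay above the knockdown pair, and the differences of -0.23 (knockdown), -0.080 (overexpression) and 0.17 (controls) were inside the SD of 0.52. Within the knockdown pair the 3 genes of lipoprotein receptors thus had values of 0.92 (Tlr1), -0.23 (Tlr2) and 0.14 (Tlr6). Whether they differed from each other was not tested.

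Tlr4, the lipopolysaccharide receptor, differed little between the arrays at its 3 brighter probe sets. Its brightest probe set, 1418162_at, had intensities of 203 in kdLNC, 203 in kdNC, 213 in oeLNC and 184 in oeNC. The knockdown difference there was 0.0020 and the overexpression difference 0.22, with an SD of 0.62. The second probe set for the same transcript record, 1418163_at, had 133 in kdLNC, 157 in kdNC, 178 in oeLNC and 198 in oeNC. Its differences were -0.23 on knockdown and -0.16 on overexpression, so the direction in the overexpression pair was opposite at the 2 probe sets. Another, 1442827_at, made from an expressed sequence tag, had 72.4 in kdLNC, 62.8 in kdNC, 61.6 in oeLNC and 77.6 in oeNC. The dimmest, 1430695_at, lay below the median of every array, between 3.20 and 4.57, with differences of 0.24 on knockdown and 0.42 on overexpression. At an SD of 0.29 the difference on overexpression was 1.48 SD, the farthest out of the 16 probe sets in the overexpression pair on that measure. The brighter 3 of these probe sets stayed inside their SD (0.60 to 0.62) in both pairs.

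The co-receptors of TLR4 gave a like picture within the pairs. Cd14, which hands lipopolysaccharide to the receptor, had an intensity of 2959 in kdLNC, 3420 in kdNC, 6052 in oeLNC and 6482 in oeNC. It was thus 1.90-fold higher in oeNC than in kdNC (0.92), while its differences within the pairs were -0.21 on knockdown and -0.099 on overexpression. Ly96, which encodes MD-2, had differences of 0.20 on knockdown and -0.055 on overexpression.

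Tlr5, the flagellin receptor, was just above the array median, with intensities at 1450242_at of 19.6 in kdLNC, 23.2 in kdNC, 24.4 in oeLNC and 19.8 in oeNC. The differences of -0.24 (knockdown) and 0.30 (overexpression) were inside the SD of 0.42.

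Tlr3, the endosomal receptor for double-stranded RNA, was the member with a 1.5-fold lower value in the knockdown pair. The intensity of 1422782_s_at was 46.7 in kdLNC, 71.0 in kdNC, 41.2 in oeLNC and 29.5 in oeNC. It was highest in kdNC and lowest in oeNC, and both LNC arrays lay between their 2 controls. The knockdown difference was -0.60 (1.52-fold lower), just past the threshold and the SD of 0.55, and the overexpression difference was 0.48. The control difference of -1.27 (2.41-fold lower in oeNC) was larger than both. Against the mean of both control arrays Tlr3 stood at 0.030 in kdLNC and at -0.15 in oeLNC, with the direction turned in each pair. The knockdown difference was under 1.5-fold after median centring (-0.58) and loess (-0.58). The dimmer probe set 1422781_at, from the same transcript record and below the array medians, had 7.26 in kdLNC, 8.89 in kdNC, 5.80 in oeLNC and 5.53 in oeNC. Its order over the arrays was that of the brighter one, with differences of -0.29 on knockdown and 0.069 on overexpression. The overexpression difference at this probe set turned to -0.048 after quantile normalization and to -0.051 after loess.

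Tlr7, which senses single-stranded RNA, had the same order of arrays at its 3 probe sets. The intensity of 1422010_at was 117 in kdLNC, 139 in kdNC, 102 in oeLNC and 85.6 in oeNC. At 1449640_at it was 57.8 in kdLNC, 73.5 in kdNC, 40.1 in oeLNC and 33.3 in oeNC, and at 1419848_x_at, made from the same expressed sequence tag, 57.9 in kdLNC, 64.7 in kdNC, 47.6 in oeLNC and 37.4 in oeNC. Each of the 3 was highest in kdNC and lowest in oeNC. The knockdown differences were -0.24, -0.35 and -0.16 in the order given, and the overexpression differences 0.25, 0.27 and 0.35, inside SDs of 0.59 to 0.64. Between the controls the differences were larger than these SDs, at -0.70, -1.14 and -0.79.

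Tlr8, in humans a receptor for RNA, is the neighbour of Tlr7 on the X chromosome with 0 genes between them, and it had another order of arrays. The intensity of 1450267_at was 10.5 in kdLNC, 9.82 in kdNC, 18.2 in oeLNC and 12.0 in oeNC. It was highest in oeLNC, where its log2 value of 4.19 stayed under the array median of 4.24, so the gene entered no count of filtered genes. The overexpression difference of 0.60 (1.52-fold) exceeded the SD of 0.42 and was the largest of the 16 probe sets in that pair, and it was 0.29 with 16 added to each intensity before the log. Tlr9, the receptor for unmethylated CpG DNA, had 17.7 in kdLNC, 17.4 in kdNC, 21.3 in oeLNC and 21.8 in oeNC at 1422083_at. Within each pair it was level (0.019 on knockdown and -0.038 on overexpression), and the overexpression pair lay above the knockdown pair, by 0.32 between the controls with an SD of 0.46.

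Myd88 had intensities at 1419272_at of 894 in kdLNC, 984 in kdNC, 773 in oeLNC and 685 in oeNC. Its arrays had the same order as those of Tlr3 and Tlr7, highest in kdNC and lowest in oeNC. The gaps between arrays next in level were 0.14, 0.21 and 0.18, each under the SD of 0.52. The differences were -0.14 on knockdown and 0.18 on overexpression, well inside the SD of 0.52, and the control difference of -0.52 was close to it.

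**Figure D2:**
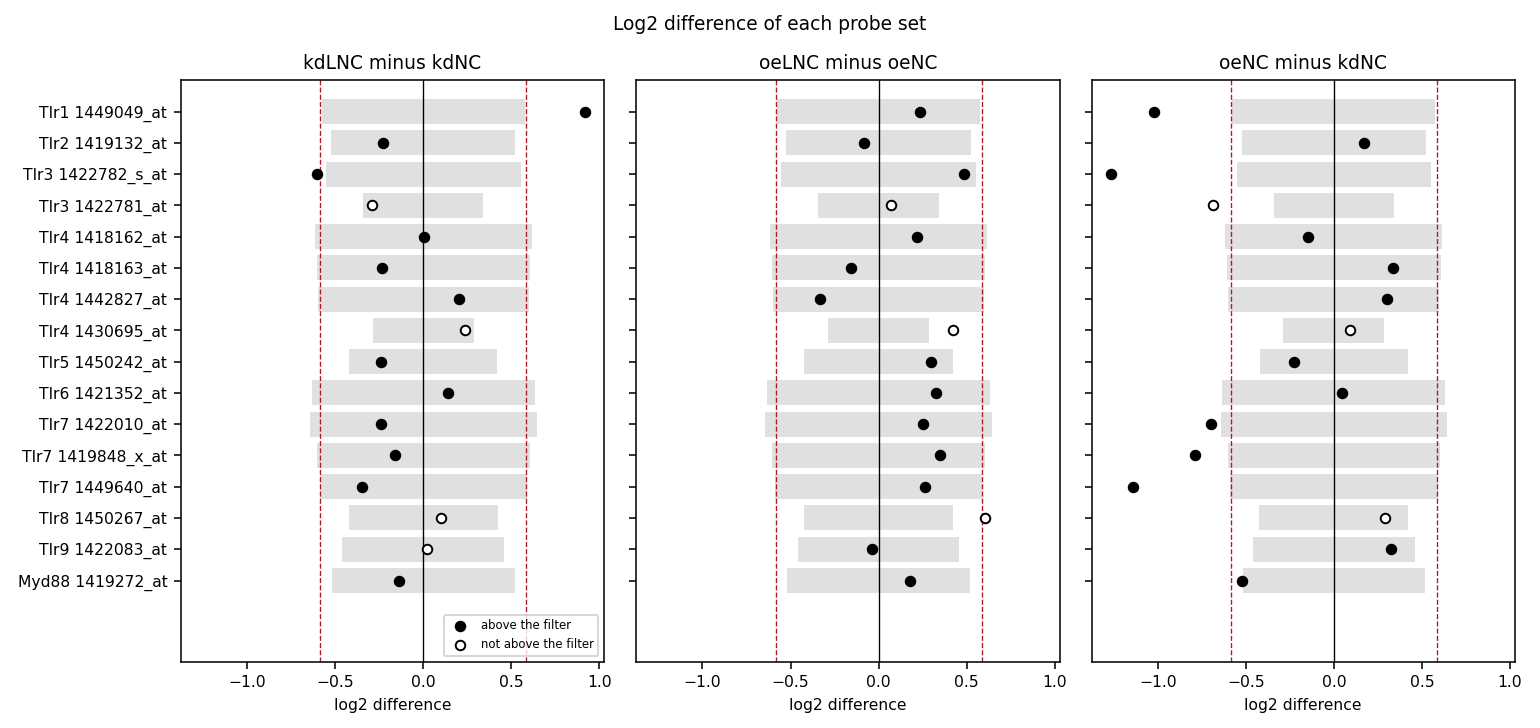
Log2 difference (horizontal axis) of each probe set for the knockdown pair (kdLNC minus kdNC), the overexpression pair (oeLNC minus oeNC) and the controls (oeNC minus kdNC), as filled points where it passed the filter and open points where it did not. Grey bars reach 1 SD to the left and right of 0, and dashed lines mark 1.5-fold. In the knockdown panel Tlr1 lies at 0.92 and Tlr3 1422782_s_at at -0.60, and in the control panel Tlr1, Tlr3 and the 3 probe sets of Tlr7 lie to the left of the dashed line.

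Over all members, 14 of the 16 probe sets lay within 1 SD of the control difference in the knockdown pair and 14 in the overexpression pair. That SD is a wide measure, since over all probe sets above the filter the differences had an SD of 0.30 in the knockdown pair, 0.37 in the overexpression pair and 0.58 between the controls. Beyond the SD of their own pair lay Tlr1, Tlr3 1422782_s_at and Tlr7 1449640_at (-0.35) on knockdown, and Tlr3 1422782_s_at, Tlr4 1430695_at and Tlr8 on overexpression. On knockdown 7 were higher and 9 lower, and on overexpression 12 were higher and 4 lower. These pairs share no array, and 7 probe sets were lower on knockdown and higher on overexpression (those of Tlr3, Tlr5, Tlr7 and Myd88), 2 were the reverse, 5 were higher in both and 2 lower in both. By the brightest probe set, 4 of 10 genes were lower on knockdown and higher on overexpression. Another 1 was the reverse, 4 were higher in both and 1 lower in both. The same shares over all probe sets were not computed, so these counts show no trait of the members. Of the genes that passed the filter, the median difference was -0.18 on knockdown, where that of all genes was -0.048, and 0.24 on overexpression, where that of all genes was -0.014. Against the mean of both control arrays, 8 of the 16 knockdown differences and 10 of the 16 overexpression differences turned sign.

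Between the control arrays the members differed by more. By gene, 3 of the 9 that passed were at least 1.5-fold lower in oeNC than in kdNC (Tlr1, Tlr3 and Tlr7) and none was higher by as much, where 12.2% of 11723 genes were lower and 9.22% higher. By probe set, 5 of 13 were lower, where 13.9% of 20120 probe sets were. This comparison shares oeNC with the overexpression pair and kdNC with the knockdown pair, so its direction is not independent of theirs. In 9 of the 16 probe sets the control difference was larger than both pair differences. In all, 6 probe sets, those of Tlr3, Tlr7 and Myd88, were highest on kdNC, and 8 were lowest on oeNC. By the brightest probe set, the control difference was the largest in 5 of 10 genes, 3 were highest on kdNC and 5 lowest on oeNC. The shares of all probe sets with these patterns were not computed.

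The promoters of Tlr3 (chr8:45410331-45410630) and Myd88 (chr9:119339969-119340268), both on the minus strand in RefSeq, are shown because these genes had 1 common order over the arrays. At Tlr3, Tlr7 and Myd88, the only gap between arrays next in level past its SD was kdNC to kdLNC at 1422782_s_at (0.60). How many of all genes have that order was not computed, so it shows no link between these genes. Capitals have the meaning given above.
Tlr3: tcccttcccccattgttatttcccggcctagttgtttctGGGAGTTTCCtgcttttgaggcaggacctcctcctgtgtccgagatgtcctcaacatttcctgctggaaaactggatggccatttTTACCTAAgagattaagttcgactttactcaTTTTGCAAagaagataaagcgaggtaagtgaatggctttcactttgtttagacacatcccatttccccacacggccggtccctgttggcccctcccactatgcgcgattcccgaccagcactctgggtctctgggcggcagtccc
Myd88: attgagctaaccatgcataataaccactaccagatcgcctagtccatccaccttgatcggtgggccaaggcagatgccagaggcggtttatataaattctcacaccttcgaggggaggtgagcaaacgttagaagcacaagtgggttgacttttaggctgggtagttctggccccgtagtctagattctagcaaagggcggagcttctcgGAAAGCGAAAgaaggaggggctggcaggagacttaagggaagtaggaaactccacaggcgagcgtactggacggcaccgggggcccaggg

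The Tlr3 entry held 1 NF-kB match, a motif in 8.46% of all entries, and 2 C/EBP matches. The Myd88 entry held 1 match to the interferon response element. Of the motifs searched, neither held AP-1, which 7.81% of entries hold, and no motif was found in both.

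Marker genes of other blood cells also differed between the controls. Of 4 B cell genes above the filter, 3 were at least 1.5-fold lower in oeNC than in kdNC, at a median of -1.18. Over all genes this share was 12.2%. By the brightest probe set none was 1.5-fold different in the knockdown pair, and 1, Pax5, was at least 1.5-fold higher in oeLNC than in oeNC (0.81). Pax5 was dim there, with 34.5 in oeLNC and 19.7 in oeNC. The second probe set of Pax5 had 0.0043 on overexpression, and 0.23 between the controls against -1.34 at the brightest. Ms4a1, which encodes the B cell antigen CD20, had at its brightest probe set 1384 in kdLNC, 1256 in kdNC, 318 in oeLNC and 294 in oeNC, so that both arrays of the knockdown pair were higher. Its second probe set had 0.90 on knockdown, against 0.14 at the brightest. The summed intensity of the 5 measured B cell genes was 2996 in kdLNC, 2848 in kdNC, 1380 in oeLNC and 1431 in oeNC, with Cr2 below the median on all arrays. B cells express TLR1, TLR7, TLR9 and CD180. Between the controls Tlr1 (-1.02), Tlr7 (-0.70 at its brightest probe set) and Cd180 (-1.5) were lower in oeNC, and Tlr9 was higher (0.32). The part of B cells in these values was not tested.

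Plasmacytoid dendritic cells, which are known for TLR7 and TLR9, had 7 measured markers, all above the median on all arrays. By the brightest probe set, 3 of these were lower in kdLNC than in kdNC (median -0.30), none was 1.5-fold different in oeLNC against oeNC and 3 were lower in oeNC than in kdNC. The knockdown count depends on that choice. Other probe sets had -1.55 to -0.53 for Klk1 (0.086 at the brightest), -0.020 to 0.92 for Tcf4 (-0.064) and -1.06 to -0.056 for Ccr9 (-1.06). The summed intensity of the 7 markers was 3488 in kdLNC, 4566 in kdNC, 2454 in oeLNC and 2271 in oeNC. Ly6d made up most of this sum on kdLNC and kdNC but not on oeLNC and oeNC. It had 1971 in kdLNC, 2428 in kdNC, 953 in oeLNC and 729 in oeNC. Its order over the arrays was that of Tlr3, Tlr7 and Myd88, and none of the other 6 markers had this order. Of the 6 measured markers of conventional dendritic cells, which include cells rich in TLR3, Zbtb46, Xcr1 and Cd209a lay below the median on all arrays, and the sum was 277 in kdLNC, 360.3 in kdNC, 393 in oeLNC and 452 in oeNC. Most of that sum was Ccr7, with 166 in kdLNC, 230 in kdNC, 265 in oeLNC and 321 in oeNC. Of the receptors named for plasmacytoid cells, Tlr7 had -0.24 on knockdown and -0.70 between the controls at its brightest probe set. Tlr9 had 0.019 on knockdown and 0.32 between the controls, higher in oeNC where 3 of these markers were at least 1.5-fold lower. The part of either cell type in the values of the receptors was not tested.

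Neutrophil markers had a median of -0.70 in kdLNC against kdNC, with 5 of 10 at least 1.5-fold lower, beside 1.96% of all genes, and none was 1.5-fold different in oeLNC against oeNC. The list was split on knockdown, with Ltf, a granule protein gene, at -2.70 and Lcn2, Mmp8, S100a8 and S100a9 between 0.047 and 0.12. Lcn2, S100a8 and S100a9 had 9245 to 11543 on the 4 arrays, close to the array maxima of 11778 to 12308.6. At that level a difference can be hidden, which limits the split. The summed intensity of the 10 neutrophil markers was 39831 in kdLNC, 47023 in kdNC, 48106 in oeLNC and 51392.5 in oeNC. Most of this sum was Lcn2, S100a8 and S100a9, so it carries the same limit. In monocytes and macrophages 1 of 6 markers was at least 1.5-fold higher on knockdown, beside 2.36% of all genes. The sum was 5141 in kdLNC, 5502 in kdNC, 6256 in oeLNC and 6027 in oeNC, mostly from Csf1r. Other probe sets of Csf1r had -0.55 to -0.18 on overexpression, against 0.11 at the brightest. Of 5 eosinophil markers above the filter, 4 were at least 1.5-fold lower on knockdown and 4 in oeNC against kdNC. Over all genes these shares were 1.96% and 12.2%. The eosinophil sums were 1422 in kdLNC, 2699 in kdNC, 1211 in oeLNC and 1294 in oeNC, mostly from Prg2. The 5 mast cell and basophil markers were all lower in oeNC, at a median of -1.74 against kdNC. Their sums, mostly from Mcpt8, were 1860 in kdLNC, 2229.7 in kdNC, 1180 in oeLNC and 957 in oeNC. T and NK cell markers summed to 649 in kdLNC, 691 in kdNC, 399 in oeLNC and 277 in oeNC, with Cd247 below the median throughout. Most of this sum was Gzma, with 513 in kdLNC, 514 in kdNC, 248 in oeLNC and 163 in oeNC. Stromal markers summed to 121 in kdLNC, 129.9 in kdNC, 142 in oeLNC and 122 in oeNC, with Col3a1 and Cxcl12 below the median throughout. Their part in the members' values was not tested.

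**Figure D3:**
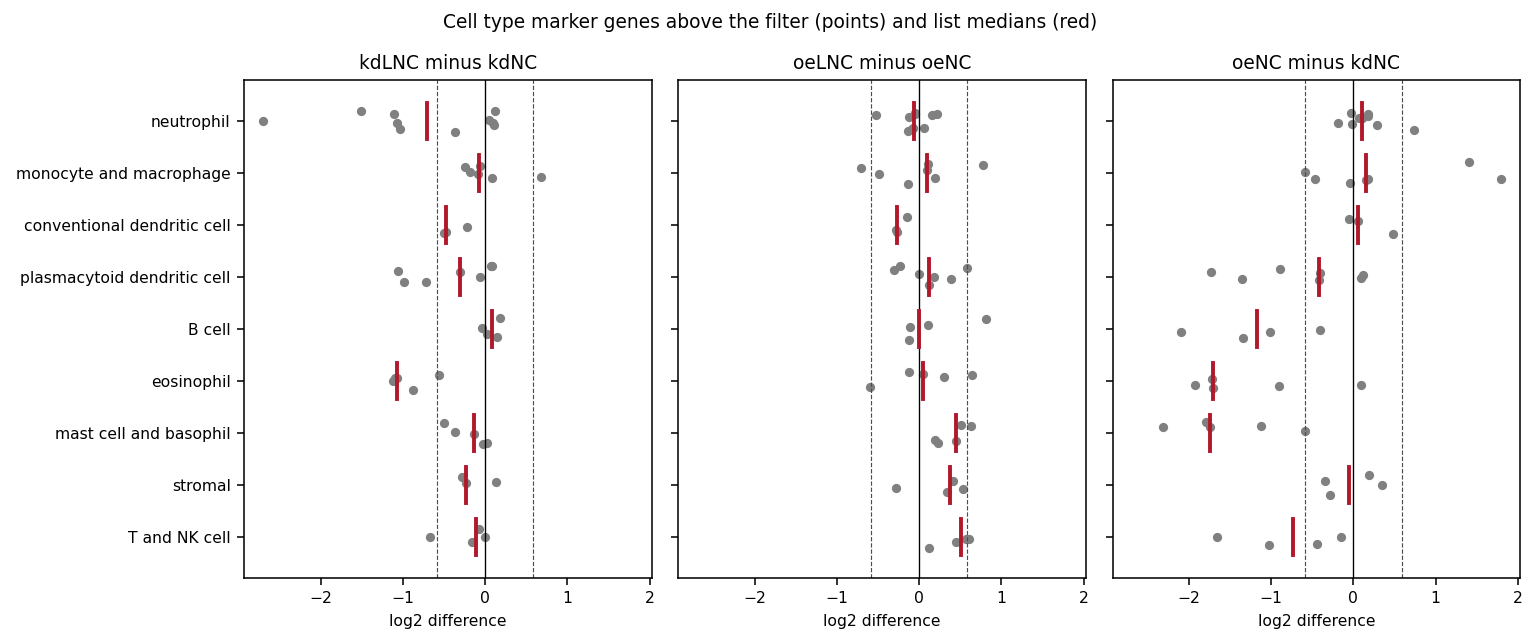
Log2 difference (horizontal axis) of cell type marker genes above the filter, as grey points, with list medians as red lines and 1.5-fold as dashed lines, for the knockdown pair (kdLNC minus kdNC), the overexpression pair (oeLNC minus oeNC) and the controls (oeNC minus kdNC). The median of the neutrophil markers is -0.70 in the knockdown panel, and those of B cell (-1.18), eosinophil (-1.71) and mast cell and basophil markers (-1.74) lie far to the left in the control panel.

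The genes that serve these receptors were followed in 9 lists with 77 members, of which 70 were measured and 69 passed the filter. In kdLNC against kdNC, 5 were at least 1.5-fold higher (7.25%) and 1 lower (1.45%), beside the 2.36% and 1.96% of all genes given above. In oeLNC against oeNC 5 were higher (7.25%) and 3 lower (4.35%), beside 3.93% and 5.38% of all genes. Their medians were -0.094 on knockdown and -0.030 on overexpression. Between the controls 14 were higher (20.3%) and 6 lower (8.70%) in oeNC, beside 9.22% and 12.2% of all genes.

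Among the other adaptors, Tirap, which bridges TLR2 and TLR4 to MyD88, had 257 in kdLNC, 335 in kdNC, 343 in oeLNC and 258 in oeNC. It was thus alike in kdLNC and oeNC and higher in the other 2, with -0.38 on knockdown and 0.41 on overexpression. Its second probe set had -0.59 on knockdown and -0.089 on overexpression, where it was opposite in direction to the brighter one. Ticam1, which encodes TRIF, had -0.28 on knockdown and 0.092 on overexpression, and by the brightest probe set none of the 3 measured adaptors differed by 1.5-fold in either pair.

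Of the 7 co-receptor genes, 1 was at least 1.5-fold higher in each pair, beside 2.36% of all genes on knockdown and 3.93% on overexpression. Cd36, a scavenger receptor that assists TLR2 and TLR6, had 161 in kdLNC, 99.3 in kdNC, 138 in oeLNC and 125 in oeNC. It was 1.62-fold higher on knockdown, while its other probe sets had differences of 0.10 to 0.78 on knockdown and -0.39 to -0.37 on overexpression, against 0.15 at the brightest. Cd180, a TLR4-like surface receptor without a signalling domain, had 130.0 in kdLNC, 163 in kdNC, 122 in oeLNC and 57.8 in oeNC. The array of oeNC stood low against the other 3, and the gene was 2.12-fold higher in oeLNC than in oeNC, with -0.33 on knockdown and -1.5 between the controls.

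The 9 genes for receptor folding, transport and cleavage, which include the chaperone gene Unc93b1 that carries the endosomal receptors, held none with a 1.5-fold difference in either pair by the brightest probe set. The second probe set of Hsp90b1, a chaperone gene, had 0.76 on knockdown against -0.0020 at the brightest, and a dimmer one of Ctsb had -0.75 on overexpression against 0.17. Unc93b1 had 818 in kdLNC, 873 in kdNC, 913 in oeLNC and 833 in oeNC. Ctsb and Ctss, proteases of the endosome, had 0.097 and 0.27 on knockdown. By the brightest probe set none of the 12 measured kinases and ubiquitin ligases differed by 1.5-fold in either pair. Tab2, which links TRAF6 to the kinase TAK1, had -0.040 on knockdown and 0.26 on overexpression, and Tbk1, the kinase downstream of TRIF, had 0.35 on knockdown and 0.084 on overexpression. At the second probe set of Tbk1 these were 1.02, past the threshold, and -0.54.

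Among 10 measured inhibitors, Socs1, which restrains cytokine and TLR signalling, had 153 in kdLNC, 196 in kdNC, 217 in oeLNC and 99.1 in oeNC. As for Cd180, oeNC was the low array, and Socs1 was 2.19-fold higher in oeLNC than in oeNC (1.13) with -0.36 on knockdown. By the brightest probe set no other inhibitor differed by 1.5-fold in either pair. On overexpression other probe sets of Cyld had -0.42 to 0.84, against 0.31 at the brightest. The second probe set of Tnfaip3 had -0.65 there, against -0.32. Of the 7 measured transcription factors, Rel, which encodes the NF-kB subunit c-Rel, had 189.7 in kdLNC, 227 in kdNC, 467 in oeLNC and 757 in oeNC. It was 1.62-fold lower in oeLNC than in oeNC and 3.33-fold higher in oeNC than in kdNC, and it had -0.26 on knockdown.

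Of the 14 induced genes above the filter, 4 were at least 1.5-fold higher on knockdown (Ptgs2, Cxcl1, Il6 and Il10). The median of the list on knockdown was 0.25. On overexpression 2 were at least 1.5-fold higher (Il10 and Ccl4) and 2 lower by as much (Ptgs2 and Cxcl1). Over all genes 2.36% were higher by as much on knockdown, and on overexpression 3.93% were higher and 5.38% lower. Cxcl1, a neutrophil chemokine gene, had 809 in kdLNC, 333 in kdNC, 471 in oeLNC and 858 in oeNC. It was 2.43-fold higher in kdLNC than in kdNC (1.28) and 1.82-fold lower in oeLNC than in oeNC, where the controls differed by 1.37. Ptgs2, the gene of cyclooxygenase 2, had 2204 in kdLNC, 983 in kdNC, 2729 in oeLNC and 5444 in oeNC. It was 2.24-fold higher in kdLNC and 1.99-fold lower in oeLNC, with a control difference of 2.47. Both genes thus lay opposite in the 2 pairs, also at their other probe sets (0.56 for Ptgs2 and 0.68 to 1.75 for Cxcl1 on knockdown, -1.31 and -1.05 to -0.45 on overexpression). Il6, whose protein was also a supplement of the culture, had 1747 in kdLNC, 1089 in kdNC, 1433 in oeLNC and 1622 in oeNC. Il10, an anti-inflammatory cytokine gene, had 349 in kdLNC, 202 in kdNC, 113 in oeLNC and 71.8 in oeNC. Its arrays had the order of those of Tlr1, with 0.79 on knockdown, 0.66 on overexpression and -1.49 between the controls. Ccl4, a chemokine gene, had 0.77 on overexpression, -0.10 on knockdown and -1.78 between the controls.

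Tlr12 and Tlr13 were measured as other receptors of the mouse family. Tlr13, which senses bacterial ribosomal RNA, had 280.1 in kdLNC, 341 in kdNC, 207 in oeLNC and 138 in oeNC. The order was that of Tlr3, Tlr7 and Myd88, with -0.28 on knockdown, 0.59 on overexpression and -1.31 between the controls. The overexpression difference, 0.5856, only just reached the threshold of 0.5850, and Tlr13 was no longer past it after median centring, where 4 in place of 5 pathway genes were higher. Tlr12, a receptor for protozoan profilin, had -0.070 on knockdown and 0.059 on overexpression. Among 5 genes of interleukin receptors that use or oppose MyD88 signalling, Il1r2, the decoy receptor of IL-1, had 496 in kdLNC, 1183 in kdNC, 1865 in oeLNC and 1808 in oeNC. It was 2.38-fold lower in kdLNC than in kdNC and had 0.045 on overexpression. Il1r2 is also a gene of neutrophils, whose markers had a median of -0.70 in the same pair, and their part in its value was not tested.

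**Figure D4:**
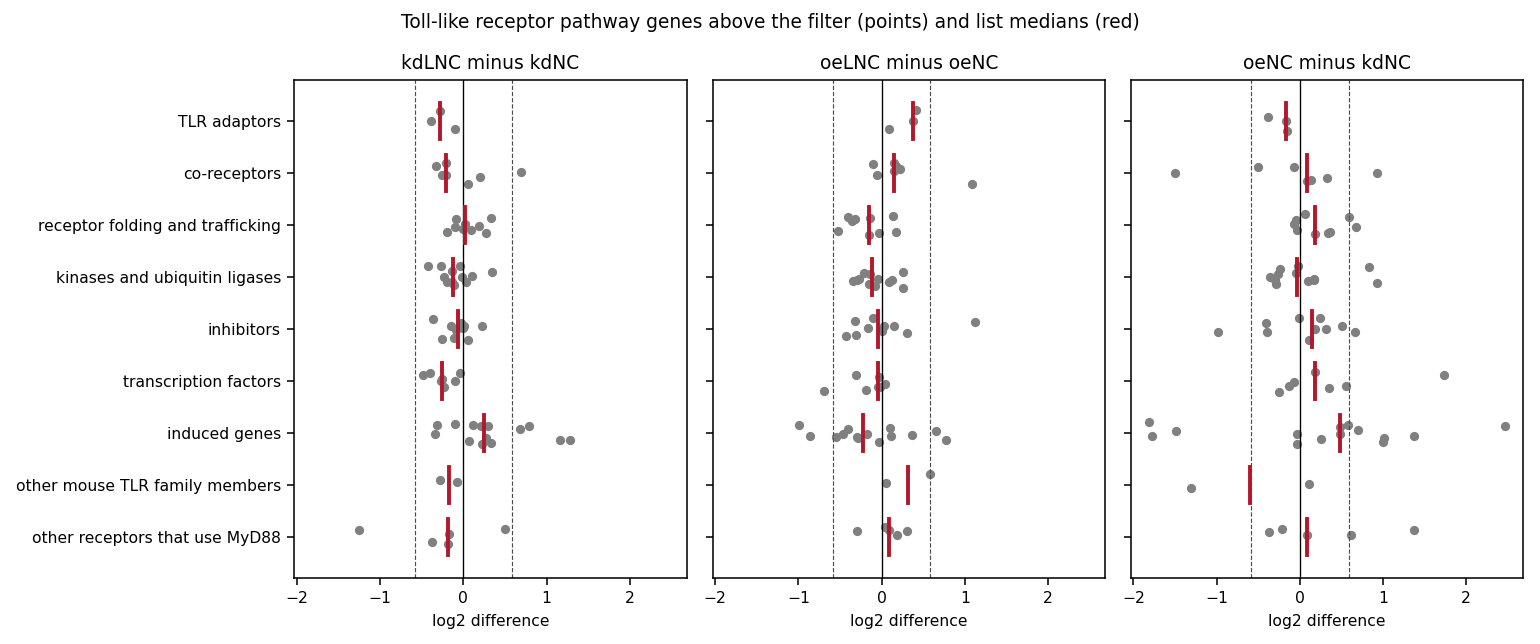
Log2 difference (horizontal axis) of the measured pathway genes above the filter, as grey points, with the medians of the 9 lists as red lines and 1.5-fold as dashed lines, for the knockdown pair (kdLNC minus kdNC), the overexpression pair (oeLNC minus oeNC) and the controls (oeNC minus kdNC). The induced genes spread widest, with Cxcl1 at 1.28 and Ptgs2 at 1.16 in the knockdown panel and Ptgs2 at 2.47 in the control panel.

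The genes whose profile over the 4 arrays was most like that of a member were sought for Tlr1, Tlr3 and Tlr8, the 3 genes of the 10 with the widest range at their brightest probe set. Likeness was the distance between log2 profiles after subtraction of each gene's own mean, over 4 points and among the 10656 genes above the median on all arrays. Nearest to Tlr1 were Maf (distance 0.13), a transcription factor gene, Csf2 (0.14), which encodes GM-CSF, and Cyp4v3 (0.16), a cytochrome P450 gene. Maf had 1232 in kdLNC, 592 in kdNC, 385 in oeLNC and 317 in oeNC, with 1.06 on knockdown, 0.28 on overexpression and -0.90 between the controls. Nearest to Tlr3 were Mfsd12 (0.070), Asf1a (0.11), which encodes a histone chaperone, and Hpse (0.12), which encodes heparanase. Mfsd12 had 80.7 in kdLNC, 124 in kdNC, 70.7 in oeLNC and 53.9 in oeNC. Nearest to Tlr8, from 10657 genes, were Nicn1 (0.054), Lce1i (0.057) and Chic1 (0.080), which had 0.55, 0.56 and 0.63 on overexpression.

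**Figure D5:**
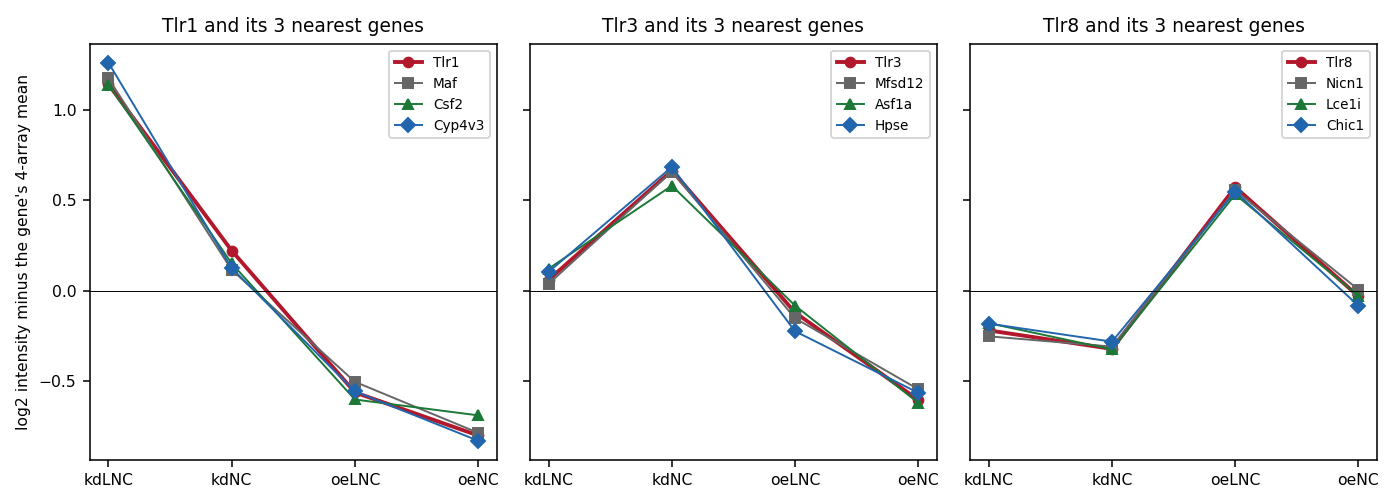
Log2 intensity minus the 4-array mean of the gene (vertical axis) on kdLNC, kdNC, oeLNC and oeNC, for Tlr1, Tlr3 and Tlr8 (red) and the 3 genes nearest to each. The Tlr1 group is highest on kdLNC, the Tlr3 group on kdNC and the Tlr8 group on oeLNC.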

How the data were processed

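RNA of 4 MDSC cultures was measured on Affymetrix mouse arrays, 1 array per group. The deposited values of 45101 probe sets have the range of linear intensities and were made with RMA according to the submitters' notes, which give no version or settings. RMA gives log2 values, so they were taken as its antilog, which no source used here states, and every fold and difference rests on this. Their log2 was taken here. Of the probe sets, 34958 carry a single gene symbol in the annotation of the platform, 932 carry several and 9211 carry none, and 0 named a member beside another symbol. For a gene with several probe sets the brightest, by mean log2 intensity, was used. Genes or probe sets above the 50th percentile of at least 1 array of a pair entered counts. With 1 array in each group limma, which the methods name, has no replicates to fit, so precision is limited by how many arrays there are. The members and lists were chosen with earlier results of these data known. The text names every member probe set, of each list every gene at least 1.5-fold different in a pair and otherwise up to 2 of the highest level, and for 3 members the 3 genes nearest in profile. Cd14, Ly96, Unc93b1, Hsp90b1, Cyld, Tnfaip3, Tlr12 and the marker genes fall outside this rule and were chosen after their values were seen. RefSeq promoters matched 8 of the 10 members. The alternatives were median centring, quantile normalization, loess within a pair, 16 added before the log, the mean of both controls as control, other fold thresholds, filters and probe set choices. Python 3.11.15, numpy 2.4.6, pandas 2.3.3, statsmodels 0.14.6 and matplotlib 3.10.9 were used, and the calculation was tested on simulated data.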

Additional observations from a re-analysis of the deposited data

How the results depend on the processing

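No paired analysis was possible because no group holds more than 1 array, and for that reason no array could be left out. A difference counted as moved when it changed by more than 1 SD of the control difference at its level. These SDs were 0.29 to 0.64, while median centring, quantile normalization and loess had median shifts of only -0.069 to 0.053. Median centring shifts every probe set of a pair equally, so under it none could move. The count of unmoved differences is thus no measure of how firm they are. Of 224 differences recomputed under the alternatives, 218 changed by less, 5 moved and 1 was reversed, and the sign turned in 20. In 18 of these the setting was the mean of both control arrays, which takes part of the control difference into each pair by construction. With the mean of both controls, the knockdown difference was 0.030 (reversed) at Tlr3 1422782_s_at and 0.049 at 1422781_at, and the overexpression difference -0.15 and -0.27 at these probe sets. With 16 added before the log, Tlr4 1430695_at was at 0.084 on overexpression and Tlr3 1422781_at at -0.21 between the controls, which follows from the addition to low intensities. For the control difference the alternatives were added after the data were seen. The count of 1 member higher on knockdown was 0 at 2-fold. The count of 1 member lower (Tlr3) was 0 after median centring, loess, the addition of 16, the mean of both controls, at 2-fold, with the mean of all probe sets and without _x_at and _s_at probe sets. Without the filter 1 member was higher on overexpression (Tlr8). Of the pathway genes, 2 were higher on knockdown at 2-fold and 5 lower with the mean of both controls. On overexpression 3 were higher with 16 added, 1 with the mean of both controls and 2 at 2-fold, and 5 were lower after median centring, 0 with the mean of both controls and 0 at 2-fold. The cause of the other changes was not tested. The background of each probe set is unknown, and this limits the dim probe sets of Tlr3, Tlr4, Tlr8 and Tlr9 most.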
